A study of Triticum aestivum with 6 samples.

Results

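The genes described here are the 211 wheat genes on the short arms of chromosomes 2A, 2B and 2D that the authors listed as differing between roots with and without signals from a mycorrhizal fungus. They were chosen by the chromosome arm written in their identifiers and make up 8.18% of the 2578 genes and loci in the authors' table. Of them 82 lie on 2AS, 75 on 2BS and 54 on 2DS, where S stands for the short arm and L for the long arm. The arms are known from the identifiers alone, since the files give no positions and 0 of the 211 identifiers were found in a gene table of the RefSeq assembly IWGSC CS RefSeq v2.1.

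All plants were hexaploid bread wheat (Triticum aestivum) of the cultivar Chinese Spring, grown outdoors at 15 plants per pot in steam-sterilised soil and quartz sand, and RNA came from roots. In the treatment called molecular signals communication (MSC), every pot held 15 bags of 0.25 µm membrane, each with 25 g of inoculum of the arbuscular mycorrhizal fungus Rhizophagus irregularis (BGC-HEB07D), so that dissolved signals could pass but neither spores nor hyphae could touch the root. In the non-mycorrhizal treatment (NM), 15 equal bags held 20 g of steam-sterilised inoculum plus a filtrate of live inoculum, so the treatments also differed in the mass and the sterilisation of the inoculum. Each treatment had 3 biological replicates, but the table gives 1 value per gene and treatment, in FPKM (sequenced fragments corrected for the length of the transcript and for library size).

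Arbuscular mycorrhizal fungi and roots exchange diffusible signals before they touch. Roots release strigolactones, which stimulate fungal growth and branching, and the fungus releases chitin-derived oligomers, which root receptor kinases with lysin motifs perceive and pass to a symbiosis pathway that plants share with nodulation. Bread wheat carries subgenomes A, B and D, so that many genes exist as homoeologs, copies at matching places on chromosomes of the same homoeologous group. The group 2 short arms are best known in breeding for photoperiod response genes that shift flowering time. Which of these functions the listed genes serve is not known here, because no gene name stands beside the identifiers in the files, and for the same reason root marker genes and symbiosis genes could not be looked up.

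The choice of genes used the same values that are reported below. Each listed item differs by at least 2-fold between the treatments, and 0 lie under that limit, so all values are descriptions of a selected list. With 1 value per treatment there is no spread between root samples, no standard error and no p-value for any gene, and no test was run between arms. The intervals given are 95% Wilson intervals that cover the counting of genes only, and depth is unknown. In bulk root tissue, more cells of a type and more RNA per cell cannot be told apart.

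Most of the genes had the larger value in roots that received fungal signals. Of the 211 genes, 175 had more FPKM in MSC and 36 had less, so that 82.9% were higher, with an interval from 77.3% to 87.4%. Among all listed items 79.8% were higher and 20.2% lower, and the first of these lies within that interval. With the treatments rescaled so that the upper quartiles of all listed values were equal, 73 short-arm genes were still at least 2-fold higher and 36 lower, 67.0% higher, against 61.9% of all listed items. All lower genes stay in such a count by construction, while higher genes near the 2-fold limit leave it. The short arms had close shares, with 67 of 82 genes higher on 2AS, 62 of 75 on 2BS and 46 of 54 on 2DS. These are 81.7%, 82.7% and 85.2%, with intervals from 72.0% to 88.6%, from 72.6% to 89.6% and from 73.4% to 92.3%, each of which contains the other shares.

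**Figure D1:**
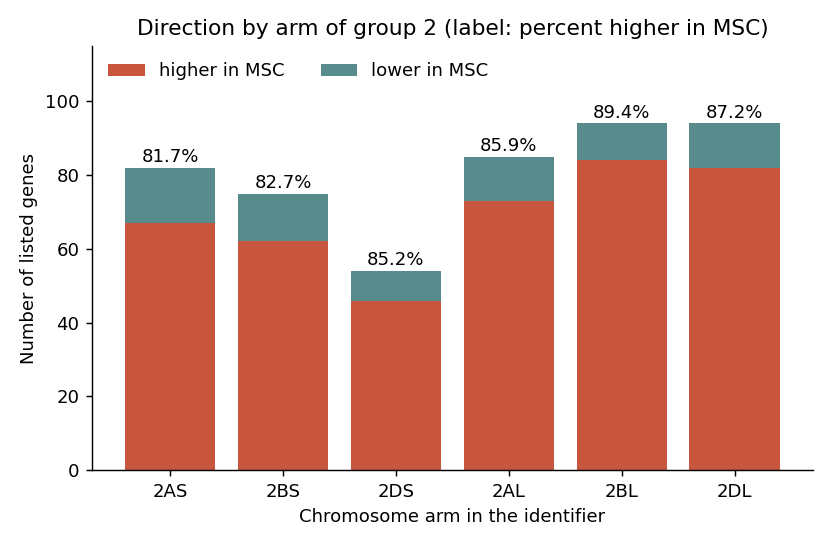
Number of listed genes on each arm of group 2, split into genes higher (lower part of each bar) and lower (upper part) in MSC, with the percentage of higher genes above the bar. The short arms hold 82, 75 and 54 genes and the long arms 85, 94 and 94, and the share of higher genes as deposited is smaller on the short arm in each subgenome, an order that turns for A among genes of at least 5 FPKM and for D at 4-fold or more. In both cases the long-arm share lies within the interval of the short-arm share.

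The long arms of the same chromosomes served as the reference. On 2AL, 2BL and 2DL together, 239 of 273 listed genes were higher in MSC, a share of 87.5% with an interval from 83.1% to 90.9%. The difference, short minus long arms, was -4.61 percentage points, and the intervals of both overlap. The short arm was the lower one in each subgenome, with 81.7% on 2AS against 85.9% on 2AL, 82.7% on 2BS against 89.4% on 2BL and 85.2% on 2DS against 87.2% on 2DL. This order turned in subgenome A among genes of at least 5 FPKM in the larger group, with 90.5% on 2AS and 83.3% on 2AL, and in subgenome D at 4-fold or more, with 90.0% on 2DS and 87.5% on 2DL. The short-arm interval was 77.9% to 96.2% over 42 genes in A and 59.6% to 98.2% over 10 genes in D. Each contains the long-arm share. Higher genes can pass 5 FPKM through their MSC value alone, so that filter does not stand apart from the direction. In number of listed genes, 2AS and 2AL were nearly even at 82 and 85, whereas 2DS held 54 against 94 on 2DL. The total number of genes on each arm was not used here, so no rate per arm is given.

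Short arms of other chromosomes gave a second reference. On the short arms of the other 6 homoeologous groups, 394 of 506 listed genes were higher, a share of 77.9% with an interval from 74.0% to 81.3%. Group 2 held the most listed short-arm genes of the 7 groups, 211, before group 1 with 133. Group 3 counts 45, on chromosomes 3A and 3D alone, since identifiers of 3B name no arm. Group 2 also had the largest short-arm share, but group 6 with 82.6% and group 1 with 81.2% were within 2 percentage points of its 82.9%. The lowest short-arm share was 70.5%, in group 5. A smaller share on the short than on the long arms was seen in 6 of the 7 groups, the exception being group 1 with 81.2% against 67.4%. In groups 3, 4 and 6 this was close to a tie, at -0.79, -1.11 and -1.18 percentage points. Groups 5 and 7 had -13.1 and -7.37, beyond the -4.61 of group 2. The order was thus also seen outside group 2, but not evenly over the groups. After rescaling to equal upper quartiles the shares were 67.0% on short and 75.7% on long arms in group 2. Over the other groups together they were 57.7% and 55.0%. The rescaled count keeps all lower genes and leaves out higher genes near the 2-fold limit, and genes under that limit were not listed. It therefore cannot decide whether the order holds. For group 3 the order rests on chromosomes 3A and 3D alone.

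The higher genes went from low to moderate levels. Their median was 1.90 FPKM in NM and 7.61 FPKM in MSC, with quartiles of 0.378 and 6.00 FPKM in NM and of 2.05 and 23.7 FPKM in MSC. Over all listed items the higher genes had medians of 1.37 and 5.20 FPKM. Genes on 2DS were the most abundant of the higher ones, with medians of 3.15 FPKM in NM and 10.1 FPKM in MSC. On 2AS the medians were 1.55 and 6.69 FPKM and on 2BS 1.81 and 7.44 FPKM. The quartile ranges of the arms overlap widely, since the middle of the NM values spanned 0.213 to 5.30 FPKM on 2AS and 0.389 to 8.58 FPKM on 2DS.

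The 36 lower genes had a median of 5.89 FPKM in NM and 1.94 FPKM in MSC, close to 5.71 and 2.06 FPKM over all listed items. On 2AS these genes were weakly expressed, with medians of 3.97 and 1.19 FPKM and no value above 36.3 FPKM in NM. On 2BS the medians were 9.26 and 3.16 FPKM and on 2DS 9.59 and 3.39 FPKM. Only 2 of the 15 lower genes on 2AS reached 10 FPKM in NM, compared with 5 of 13 on 2BS and 4 of 8 on 2DS.

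**Figure D2:**
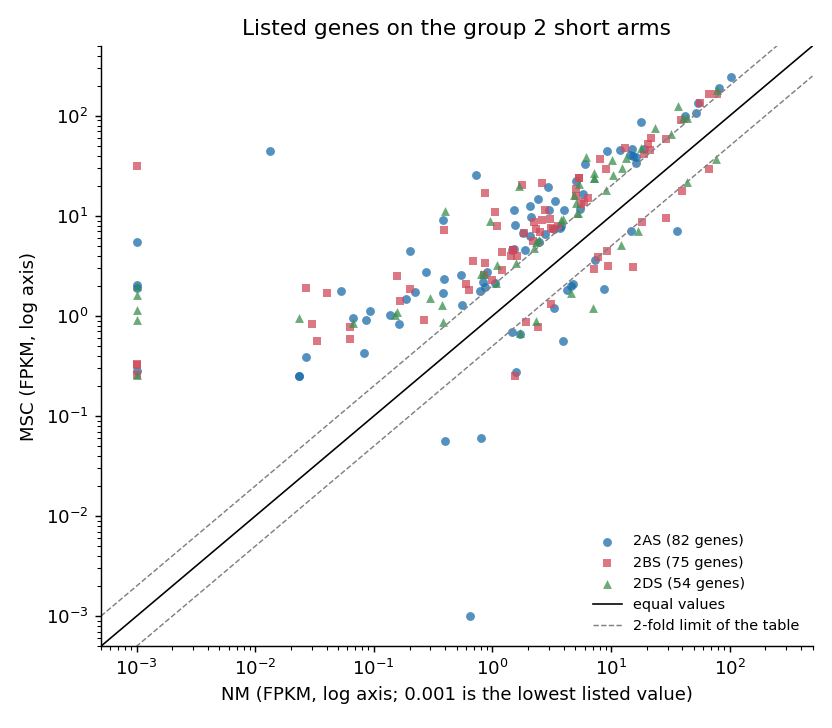
FPKM in NM (horizontal) and in MSC (vertical) of each of the 211 genes, on log axes, with equal values as a solid line and the 2-fold limit of the table as dashed lines. The 175 higher genes lie above the upper dashed line and the 36 lower genes below the lower one, and the column of points at the left edge holds 13 genes listed at 0.001 FPKM in NM.

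As listed, the share of higher genes differed between levels on 2AS but hardly on the other short arms. Of the 29 genes on 2AS with at least 10 FPKM in the group with the larger value, 27 were higher in MSC. This share of 93.1% compares with 75.5% for the 53 genes below that level. On 2BS the shares were 83.3% and 82.2%, and on 2DS 85.2% at both levels. Among the long arms, 2DL had 94.9% and 81.8%, and over all listed items the shares were 79.4% and 80.0%. Higher genes can pass 10 FPKM through their MSC value alone, so the level does not stand apart from the direction. Nothing is read from these differences.

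The 10 genes that reached 100 FPKM in either treatment, 5 on 2AS, 3 on 2BS and 2 on 2DS, all had the larger value in MSC, with 36.5 to 102 FPKM in NM and 101 to 246 FPKM in MSC. Among all listed items of this level, 67 of 107 were higher, a share of 62.6%, and on the group 2 long arms 11 of 12 were. Of the 10 genes, 9 were under 100 FPKM in NM and passed this level through their MSC value alone, so the level does not stand apart from the direction and nothing is read from the count. The ratios were moderate, from 2.07-fold to 3.47-fold, and none reached 4-fold. Together the 10 genes made up 36.9% of the FPKM that the short-arm genes sum to in MSC.

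Traes_2AS_48F5EBFF7, the most abundant of these genes, had a value of 102 FPKM under NM and of 246 FPKM under MSC. This is a ratio of 2.40-fold, or 1.26 on the log2 scale after adding 1 FPKM to both values. Near it in level stood 1 gene on each arm with almost the same NM value. The gene on 2AS had 80.8 FPKM in NM and 189.5 in MSC, that on 2DS 79.0 and 183 FPKM, and that on 2BS 78.9 and 164 FPKM. Whether these are homoeologs of each other cannot be read from the identifiers.

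The most abundant lower gene was Traes_2DS_C6577FC96, at 76.4 FPKM in NM and 36.7 in MSC, a 2.09-fold smaller value under signals. It was followed by a gene on 2BS at 67.2 FPKM in NM and 29.6 in MSC. Of the 10 genes with the highest NM values, these 2 were lower in MSC and 8 were higher.

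**Figure D3:**
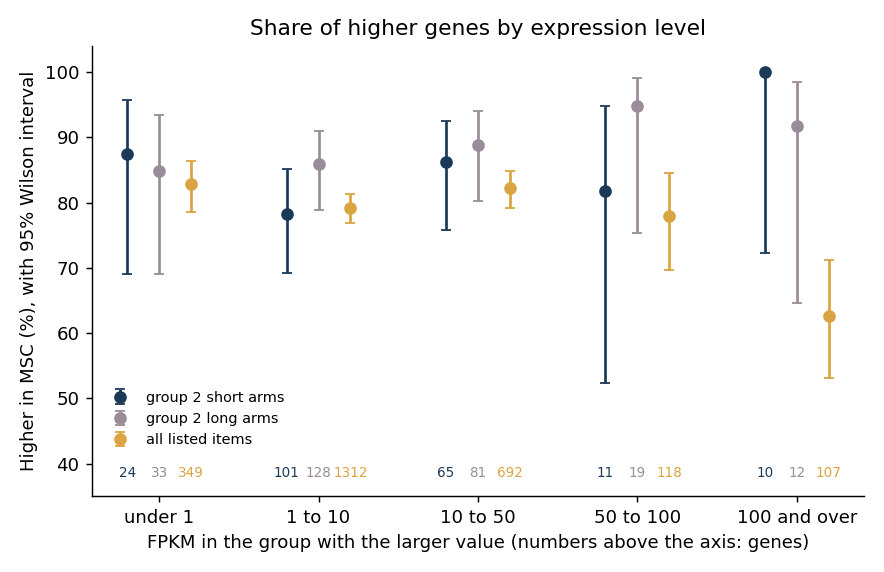
Percentage of genes higher in MSC, with 95% Wilson intervals, by the FPKM in the treatment with the larger value, for the group 2 short arms, the group 2 long arms and all listed items, with the number of genes above the axis. On the short arms the share lies between 78.2% and 87.5% below 100 FPKM and is 100% for the 10 genes above, 9 of which passed that level through their MSC value alone.

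Summed over all 211 genes, the level was 1898 FPKM in NM and 4211 FPKM in MSC, 2.22 times as much. On the long arms of group 2 the sum went from 1981 to 5248 FPKM, 2.65 times as much, and over all listed items it was 1.17 times as much. The sums of the whole table contain lower genes of up to 5329 FPKM in NM, and no lower gene on the group 2 short arms exceeded 76.4 FPKM. Split by direction, the short arms and the table changed in similar proportion. Higher genes summed to 1426 and 4021 FPKM on the short arms, and to 12674 and 36433 FPKM over all listed items. Lower genes summed to 472 and 190 FPKM, and to 29746 and 13308.5 FPKM. By arm, with both directions together, the ratio of the sums was 2.52 on 2AS, 2.04 on 2BS and 2.10 on 2DS.

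The size of the change was close to that of the whole table. Differences below are log2((MSC + 1)/(NM + 1)), with 1 FPKM added to both values, which understates the change of weakly expressed genes. The 175 higher genes had a median of 1.20 and quartiles of 0.94 and 1.59, where all higher items of the table had a median of 1.12. For the 36 lower genes it was -0.97, with quartiles of -1.14 and -0.84, and -1.00 over the table. On the long arms the medians were 1.25 and -0.99. The median of the higher genes was 1.23 on 2AS, 1.21 on 2BS and 1.09 on 2DS.

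**Figure D4:**
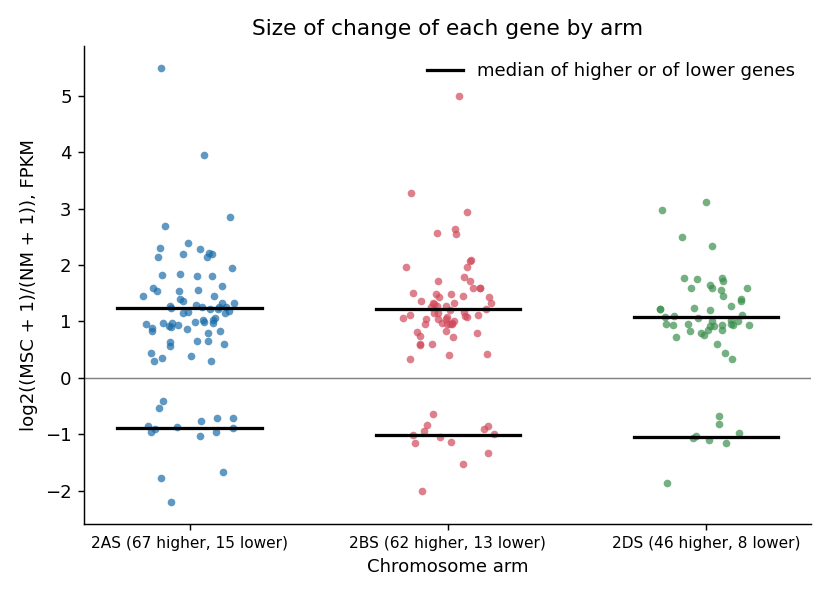
log2((MSC + 1)/(NM + 1)) of each gene by short arm, 1 point per gene, with horizontal bars at the median of each direction. Medians of the higher genes are 1.23, 1.21 and 1.09 on 2AS, 2BS and 2DS, the points overlap throughout, and the 2 largest increases, 5.50 and 5.01, lie on 2AS and 2BS.

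As deposited, ratios of at least 4-fold were most frequent on 2AS and least frequent on 2DS. Leaving out genes listed at 0.001 FPKM, a ratio of 4-fold or more was reached by 60 of 162 higher genes, 37.0%, where all higher items of the table had 38.2%. On 2AS these were 31 of 63 genes, 49.2% with an interval from 37.3% to 61.2%. On 2BS they were 20 of 58, 34.5% with an interval from 23.6% to 47.3%. On 2DS they were 9 of 41, 22.0% with an interval from 12.0% to 36.7%. With identical copies counted once 2AS had 48.4%, with an interval from 36.4% to 60.6% that overlaps that of 2DS. With at least 1 FPKM in both treatments the shares were 28.9%, 20.0% and 6.67%, with intervals from 17.0% to 44.8%, from 10.5% to 34.8% and from 1.85% to 21.3%, which overlap. The long arms of the same chromosomes had 45.1%, 45.0% and 36.4%. On the short arms of the other groups the listed shares ran the other way, with 32.4% for A chromosomes, 35.5% for B and 41.3% for D. Their intervals overlap, that of A reaching up to 40.5% and that of D down to 33.1%. At 8-fold or more these short arms had 12.7% for A, 18.7% for B and 15.9% for D, so that order was not kept. No opposite order of the subgenomes is read from them.

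The order of the subgenomes held at 4-fold but not at every limit. At 8-fold or more, 12 genes on 2AS, 14 on 2BS and 5 on 2DS remained, which are 19.0%, 24.1% and 12.2%, where all higher items had 17.2%. At 16-fold or more they were 5, 6 and 2 genes, 7.94%, 10.3% and 4.88%, and 8.67% of all higher items. The share on 2DS was the smallest at each of the 3 limits, and the first place passed from 2AS to 2BS. With the treatments rescaled to equal upper quartiles, 19.0% of the same higher genes on 2AS, 22.4% on 2BS and 12.2% on 2DS were at least 4-fold apart, which restates the counts near 8-fold because the limit then lies at 8.22-fold in the deposited values.

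Expression level went with these shares on 2DS but did not set 2AS apart from 2BS. Genes of at least 10 FPKM in MSC made up 23 of the 41 higher genes on 2DS, 24 of the 58 on 2BS and 27 of the 63 on 2AS. The parts on 2BS and 2AS were close, although their 4-fold shares were 34.5% and 49.2%. Over all listed items a 4-fold ratio was seen in 20.6% of higher genes at or above 10 FPKM and in 48.8% below. Among the genes at or above 10 FPKM, 11 of 27 on 2AS, 8 of 24 on 2BS and 3 of 23 on 2DS reached 4-fold. Below 10 FPKM these were 20 of 36, 12 of 34 and 6 of 18. The share on 2AS was the largest at both levels. For higher genes the level is the MSC value, which also enters the ratio, so the level does not stand apart from the ratio. The part of level in the difference between arms was not tested.

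**Figure D5:**
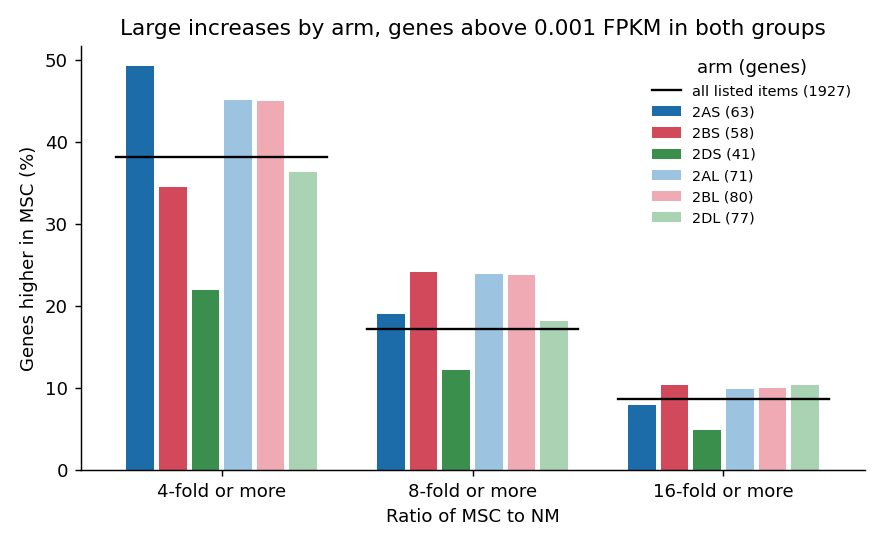
Percentage of the genes higher in MSC whose ratio was at least 4-, 8- or 16-fold, by arm of group 2, among genes above 0.001 FPKM in both treatments, with the same share over all listed items as a horizontal line. 2DS has the smallest share at each limit, 22.0%, 12.2% and 4.88%, whereas 2AS is the highest arm only at 4-fold.

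The largest single increase was that of Traes_2AS_E08BF60FE, from 0.0133 FPKM in NM to 44.9 in MSC, a log2 difference of 5.50. Its NM value is 4 times the smallest step of the table above 0.001 FPKM, so no fold is given. The second largest, on 2BS, stood at 0.001 FPKM in NM and reached 31.2 in MSC. The third, on 2AS, went from 0.723 to 25.5 FPKM, a log2 difference of 3.94. The largest increase on 2DS was smaller, from 0.397 to 11.1 FPKM, a log2 difference of 3.12.

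In all, 24 short-arm genes had a log2 difference of at least 2, 13.7% of the higher genes, where the whole table had 10.3% and the long arms 14.6%. Of these 12 lay on 2AS, 8 on 2BS and 4 on 2DS. Not all started near 0, since 1 gene on 2AS went from 17.9 to 86.1 FPKM and 1 on 2DS from 6.11 to 39.2 FPKM.

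Large decreases were few. Only 2 of the 36 lower genes had a log2 difference of -2 or less, 5.56%, where all lower items had 4.6%. Traes_2AS_F3FA5442E went from 36.3 FPKM in NM to 7.11 in MSC, a log2 difference of -2.20 and a 5.10-fold smaller value. The other, on 2BS, went from 15.3 to 3.07 FPKM. The largest decrease on 2DS was from 7.02 to 1.20 FPKM, a log2 difference of -1.87. Leaving out genes listed at 0.001 FPKM, a ratio of at least 4-fold was found in 9 of 35 lower genes, 25.7%, where the table had 19.4%. Of these 9 genes 6 lay on 2AS, among its 14 lower genes, a share of 42.9% with an interval from 21.4% to 67.4%. Some of the 6 had low values in both treatments, such as 0.797 FPKM in NM and 0.06 in MSC, or 0.4 and 0.0567 FPKM.

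Of the short-arm genes 13 were listed at 0.001 FPKM in NM, and the same was true of 5% of all items. They lay on all arms, 4 on 2AS, 4 on 2BS and 5 on 2DS. In MSC they had a median of 1.15 FPKM, from 0.257 to 31.2 FPKM. Apart from the gene on 2BS with 31.2 FPKM, the highest was a gene on 2AS with 5.45 FPKM, so most stayed weakly expressed. The reverse case was 1 gene on 2AS, at 0.647 FPKM in NM and 0.001 in MSC, where 1.09% of all items were listed at that value. An absent transcript and one too rare for the rounding of the table would both be listed at this value.

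Many genes stood close to 2-fold, a limit under which no item was listed. Leaving out genes listed at 0.001 FPKM, ratios from 2- to 2.5-fold were found in 51 of 162 higher and 19 of 35 lower short-arm genes. Ratios below 2.2-fold were found in 19 and 8. The lower quartile of the ratio was 2.39-fold in higher and 2.24-fold in lower short-arm genes. Over all listed items it was 2.44-fold and 2.19-fold, so this was not particular to the short arms. The gene nearest to the limit, on 2BS, had 29.3 FPKM in NM and 58.7 in MSC, a ratio of 2.00-fold. The nearest lower gene, also on 2BS, had 7.73 FPKM in NM and 3.85 in MSC, a ratio of 2.01-fold. Genes just outside the limit were not analysed here.

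Some identifiers cannot be told apart by their values. Of the 211, 9 had the same pair of values as another listed item. In 3 pairs, 1 on 2AS and 2 on 2BS, both identifiers lay on the same arm and shared the code that follows the arm. One gene on 2BS, at 1.05 FPKM in NM and 11.1 in MSC, shared its code and its values with an identifier on 5DL, so that its arm is uncertain. The other 2 had a different code from their match and were listed at 0.001 FPKM in NM. Codes were not shared between 2AS, 2BS and 2DS, and homoeologs could not be compared gene by gene.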

How the data were processed

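The authors deposited 1 table of FPKM, with 1 column for NM and 1 for MSC. The latter is headed MF, as in the descriptions of the MSC samples. Per the labels' protocols, polyadenylated RNA from about 100 mg of root per replicate was fragmented to about 300 bp and sequenced with reads of 150 bp on average. RSEM 1.3.0, Cufflinks and TopHat2 are named in the submitters' processing notes, without roles. The genome build is not given in the sources used here, nor are the annotation and the selection of genes. All 408 values of the short-arm genes above 0.001 FPKM lie within 0.01 of a step of 1/300, which averages of 3 values with 2 decimals would give, so read counts and depth cannot be recovered and no count test was run. The value 0.001 was treated as a stand-in for 0.

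Arms were read from identifiers. Of all rows, 21 stand out of identifier order, 0 of them on the group 2 short arms and 4 on its long arms. Replicates share 1 value, so neither a test over samples nor a paired fit was made. The genes and comparisons were chosen with earlier results of these data known. At most 2 identifiers per direction are printed, those of the largest log2 difference and of the highest level among genes of at least 5 FPKM. The summaries were tested on simulated data. Software was matplotlib 3.10.9, SciPy 1.17.1, pandas 2.3.3, NumPy 2.4.6 and Python 3.11.15.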

Additional observations from a re-analysis of the deposited data

How the results depend on the processing

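No paired analysis was possible because replicates have no values of their own, and for the same reason no replicate could be left out. Rescaling of the 4-fold shares, and the alternatives to the long arms' 4-fold share, were chosen after seeing the data. Filters keep fewer genes by construction. With at least 1 FPKM in both treatments 108 short-arm genes were higher, with at least 5 FPKM in the larger one 103 were higher and 18 lower, and at 4-fold 60 and 9. Rescaled to equal upper quartiles, a log2 shift of -1.04, 73 genes were at least 2-fold higher. All 36 lower genes stay lower then by construction, so the share of higher genes was 67.0%, or 70.0% on 2AS, 64.9% on 2BS, 63.6% on 2DS and 75.7% on the long arms. Among genes of at least 5 FPKM the share on 2AS was 90.5%. At 4-fold it was 90.9% on 2BS and 92.3% on the long arms. The short arms stayed below the long arms in each of the 6 alternatives, by -8.74 to -3.19 percentage points. All reuse the same genes, and the -8.74 comes from the rescaled count, which keeps all lower genes by construction. With at least 1 FPKM in both treatments, 4-fold ratios made up 28.9% of higher genes on 2AS, 20.0% on 2BS, 6.67% on 2DS and 19.4% on the long arms. With at least 5 FPKM in the larger one the long arms had 28.7%. Rescaled, over the same higher genes, 4-fold ratios made up 19.0% on 2AS, 22.4% on 2BS, 12.2% on 2DS and 21.1% on the long arms, smaller by construction. The median log2 difference of higher genes was 1.68 with 0.1 FPKM added, 0.68 with 5, 1.27 with at least 1 FPKM in both treatments and 1.43 with at least 5 in the larger one. For lower genes it was -1.25 with 0.1 FPKM added, -0.52 with 5 and -1.12 with at least 5 FPKM. With at least 1 FPKM in both treatments the higher genes' medians were 5.09 FPKM in NM and 16.1 in MSC. Under 0.1 FPKM lay 30 genes in NM and 3 in MSC. Of 90 values under alternatives 57 stayed within their interval or within 1.5 times. Leaving out the rows out of identifier order removed 0 short-arm genes, so the short-arm values under it could not change. Counting identical copies once removed few genes, so the values under it could hardly change. The 57 are therefore not read as stability. Beyond what the filters and the scaling do by construction, the cause of the changes in the other values was not tested. With depth unknown, the precision of low values cannot be stated.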
